A study of Mus musculus with 12 samples.

Results

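B cells and the plasma cells they give rise to were followed in mouse heart RNA through 7 marker genes, Cd79a, Cd79b, Ms4a1, Ighm, Igkc, Jchain and Pax5. The members were taken by gene symbol from the table of read counts, where 5 of the 7 were analysed among 25171 loci. Values of Ighm and Igkc, which encode the constant regions of the IgM heavy chain and of the kappa light chain, were not analysed here, so the immunoglobulin output of plasma cells was followed through Jchain and through the other genes of the lineage. The symbols name known markers of the lineage, and they were chosen with earlier results of these data known.

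A B cell carries on its surface a membrane antibody held in a complex with CD79A and CD79B, which pass the antigen signal into the cell. MS4A1, also called CD20, is a membrane protein of mature B cells that is lost when they become plasma cells, and PAX5 is the transcription factor that holds cells in the B lineage and is switched off in plasma cells. JCHAIN is the small protein that joins secreted IgM and IgA into polymers and is made in large amount by plasma cells. The mouse heart holds a small resident and circulating B cell population, most of it in or close to the vessels.

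The study set 4 groups of 3 hearts each. Every mouse had a human NOTCH2NLC transgene of 98 GGC repeats in Rosa26, silent until Cre removes a stop sequence between loxP sites. EIIa-tg mice also carried EIIa-Cre, which acts in the early embryo and so in all tissues, blood cells included, and their EIIa-ctl littermates lacked this Cre, and both were taken at postnatal day 30. Myh6-tg mice carried the tamoxifen-activated Myh6-CreERT2, which acts in cardiomyocytes, and received 3 intraperitoneal injections of tamoxifen at 75 mg/kg from day 60. Their Myh6-ctl controls had the same alleles and received corn oil, and hearts of both were taken at day 90. Tamoxifen and expression of the repeat therefore cannot be told apart in the Myh6 comparison, and age, the Myh6-CreERT2 allele and the injections cannot be told apart between the control groups. The labels of EIIa-tg replicates 2 and 3 name other genotypes than replicate 1, and these hearts were grouped by their titles.

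The 12 libraries held between 38343106 and 50969834 counts, and 3 counts, used as the floor, corresponded to 0.0589 to 0.0782 CPM, the usual unit of counts scaled to library size. The labels give heart as the tissue but their extraction text names brain, and genes of cardiomyocytes took 10672 to 33796 CPM in every library. In each transgenic group 1 heart stood apart. Myh6-tg replicate 1 had 29074 CPM of cardiomyocyte genes and 1486 CPM of fibroblast genes, against 13063 and 10672 and against 3346 and 3973 CPM in replicates 2 and 3, and without it 1690 instead of 608 genes were called in the Myh6 comparison by the strictest rule below. EIIa-tg replicate 2 had 27444 CPM of cardiomyocyte genes against 14350 and 17326 CPM, and without it 921 instead of 0 genes were called in the EIIa comparison. In each group the heart numbered 1 had 4224 to 7307 counts of Y-linked genes and the others had no more than 2, so each group held hearts of both sexes and the replicate number followed sex. The labels call the hearts biological replicates. CPM below are relative to all counts of a heart, while fitted log2 fold changes use TMM-scaled library sizes. On the unscaled CPM the median gene was 0.21 higher in EIIa-tg and 0.42 higher in Myh6-tg on the log2 scale, against 0.02 and 0.03 in the fits. In whole tissue, fewer cells of a type and less RNA per cell cannot be told apart.

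All 5 markers were rare transcripts, with between 0 and 145 counts per heart. Per length and depth, as fragments per kilobase of transcript scaled to depth (FPKM), the order in EIIa-ctl hearts was Cd79b at 1.24 ± 0.235 (SD, n = 3), Jchain at 0.543 ± 0.405, Cd79a at 0.509 ± 0.104, Ms4a1 at 0.256 ± 0.0729 and Pax5 at 0.0543 ± 0.0471. The spreads of Jchain and Cd79a overlapped, and the other neighbours in this order were apart by more than their SD. For scale, Ptprc, the CD45 gene of all leukocytes, stood at 1.62 ± 0.247 FPKM in the same hearts. In EIIa-tg hearts the mean FPKM were 1.25 ± 0.506 for Cd79a, 0.861 ± 0.357 for Cd79b, 0.736 ± 0.161 for Jchain, 0.246 ± 0.144 for Ms4a1 and 0.0591 ± 0.0126 for Pax5, so Cd79a came first, within the spread of Cd79b. In Myh6-ctl hearts they were 1.14 ± 0.868 for Jchain, 0.625 ± 0.279 for Cd79b, 0.575 ± 0.268 for Cd79a, 0.125 ± 0.0325 for Ms4a1 and 0.024 ± 0.0257 for Pax5, with the first 3 overlapping. In Myh6-tg hearts the order was Jchain at 1.58 ± 0.821, Cd79b at 0.672 ± 0.316, Cd79a at 0.327 ± 0.259, Pax5 at 0.0563 ± 0.0646 and Ms4a1 at 0.00526 ± 0.0091 FPKM (SD, n = 3 in each group). Jchain was thus the member with the highest mean level in this group and Ms4a1 the lowest, while neighbours in that order overlapped in their spread. Summed over the 5 genes, the level ran from 3.38 to 5.44 CPM in EIIa-ctl, 5.22 to 5.60 in EIIa-tg, 2.85 to 5.79 in Myh6-ctl and 2.02 to 6.31 in Myh6-tg, so transgenic and control hearts overlapped in both models.

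**Figure D1:**
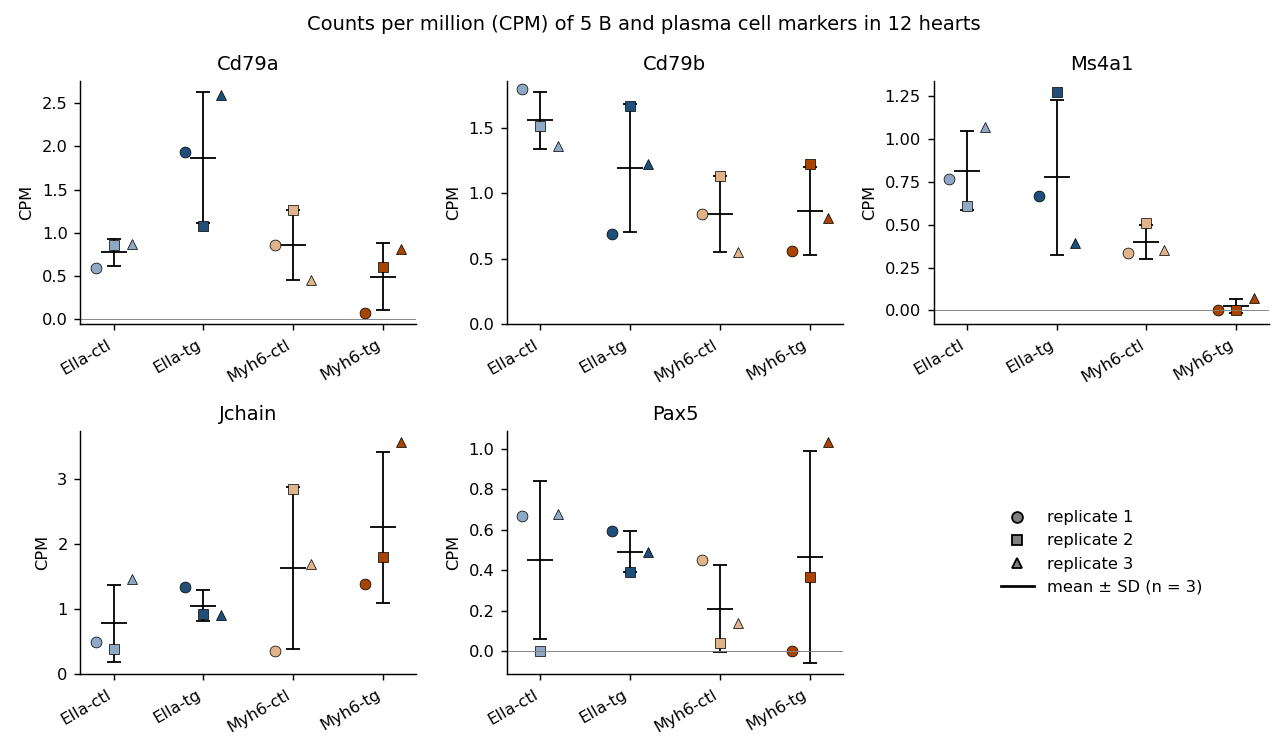
CPM of the 5 markers (vertical axes, each with its own scale) in the 3 hearts of each of 4 groups. Symbols mark the replicate number, and bars give the mean ± SD of 3 hearts. Cd79a in EIIa-tg lies above all EIIa-ctl hearts, Ms4a1 in Myh6-tg lies at or near 0, and the other panels overlap between transgenic hearts and their controls.

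The sequences before the RefSeq start of 3 genes are shown as context for genes described below, and no result rests on them. Cd79a is the receptor chain that stood apart in EIIa-tg and its promoter is a known target of the B lineage factors EBF1 and PAX5, Vpreb3 rose in EIIa-tg, and Bank1 fell in Myh6-tg. These genes and the shorter motif of Cd79a were chosen after their values and sequences had been seen. RefSeq promoters were at hand for 3 of the 7 members, and each run below is the part of the 250 bases before the RefSeq start that no GENCODE exon covers, read 5′ to 3′ on the gene's strand in GRCm38.p6. Capitals in Cd79a mark AAGGGAAT, a short form of the EBF1 motif, and capitals in Vpreb3 mark the octamer ATTTGCAT, the motif of the OCT2 and OCT1 factors. Both strands were searched. The run of Cd79a is chr7:24897247-24897380 on the + strand, that of Vpreb3 is chr10:75948050-75948299 on the + strand, which lies inside the longer GENCODE span of the gene, and that of Bank1 is chr3:136326067-136326316 on the - strand.
Cd79a: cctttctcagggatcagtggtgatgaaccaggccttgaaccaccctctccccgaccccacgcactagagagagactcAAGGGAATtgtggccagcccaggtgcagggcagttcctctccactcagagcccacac
Vpreb3: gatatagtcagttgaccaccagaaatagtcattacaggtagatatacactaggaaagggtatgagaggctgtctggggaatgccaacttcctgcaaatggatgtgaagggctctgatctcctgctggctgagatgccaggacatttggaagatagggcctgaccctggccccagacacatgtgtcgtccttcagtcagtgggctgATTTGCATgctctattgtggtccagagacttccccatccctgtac
Bank1: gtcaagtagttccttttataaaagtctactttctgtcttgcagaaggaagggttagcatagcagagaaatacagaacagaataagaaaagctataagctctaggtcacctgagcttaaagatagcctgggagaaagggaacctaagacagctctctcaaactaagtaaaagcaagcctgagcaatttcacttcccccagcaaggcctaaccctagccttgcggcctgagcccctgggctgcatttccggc
Among 32851 promoters, 1.6% held the octamer and 1.1% held AAGGGAAT in the 250 bases before the start, on either strand. Blnk also held the octamer in its window, and the windows of Jchain, Pax5, Bank1, Cd72, Cd180 and Pou2f2 held neither motif. A match describes the letters in the window only.

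Cd79a, the alpha signalling chain of the B cell receptor (ENSMUSG00000003379, GRCm38 chr7:24897381-24902197, + strand), was the member that differed most in the EIIa model. Its counts were 30, 35 and 36 in EIIa-ctl hearts and 78, 55 and 106 in EIIa-tg hearts. The highest control lay below the lowest transgenic heart, at 1.87 ± 0.758 CPM against 0.774 ± 0.159 CPM (SD, n = 3). The fitted log2 fold change was 1.05 (SE 0.39), which did not pass the correction over all genes in edgeR's quasi-likelihood test (adjusted p = 0.0938). Without EIIa-tg replicate 2, the lowest of the transgenic hearts, it was 1.31 with an adjusted p of 0.0331. Leaving out any other single heart gave 0.81 to 1.16, with adjusted p of 0.142 to 0.297. The loss of EIIa-tg replicate 2 also raised the calls over all genes from 0 to 921, so the lower adjusted p was not particular to Cd79a.

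In the Myh6 model Cd79a had 44, 59 and 23 counts in controls and 3, 23 and 33 counts in Myh6-tg hearts. Replicate 1 of Myh6-tg was at the floor, and the other 2 hearts lay within the range of the controls. The log2 fold change was -1.30 (SE 0.86, adjusted p = 0.327 in the same test), and -0.81 without replicate 1 (adjusted p = 0.431). The difference between the responses of the 2 models was -2.36 (SE 0.96, adjusted p = 0.195).

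Cd79b, the partner chain with which Cd79a forms the signalling unit (ENSMUSG00000040592, chr11:106311341-106314762, - strand), did not follow it. Its counts were 91, 62 and 56 in EIIa-ctl and 28, 85 and 50 in EIIa-tg, with overlapping groups and a log2 fold change of -0.57 (SE 0.39, adjusted p = 0.336, edgeR), or -0.95 without EIIa-tg replicate 2 (adjusted p = 0.117). Counts in Myh6-ctl were 43, 53 and 28 and in Myh6-tg 24, 47 and 33, again overlapping. The fitted log2 fold change there was -0.41 (SE 0.58, adjusted p = 0.663), while on FPKM, which are scaled to all fragments of a heart, it was 0.08 with a pseudocount of 0.1, so the direction depended on the scaling.

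Since the product of each gene is needed in equal number in the receptor, their FPKM were compared within each heart. The ratio of Cd79a to Cd79b was 0.264, 0.454 and 0.572 in EIIa-ctl and 2.74, 0.615 and 1.85 in EIIa-tg. On FPKM every EIIa-tg heart thus exceeded every EIIa-ctl heart, but the closest pair was barely apart. EIIa-tg replicate 2, at 0.615, had 55 counts of Cd79a and 85 of Cd79b. EIIa-ctl replicate 3, at 0.572, had 36 and 56 counts, which is nearly the same proportion. The counting error of the ratios was not computed. In Myh6 hearts the ratio was 1.01, 0.908 and 0.814 in Myh6-ctl and 0.111, 0.395 and 0.841 in Myh6-tg, where the highest transgenic heart exceeded the lowest control. With 3 hearts against 3 an exact permutation test cannot give a p below 0.1, so these ratios are a description.

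**Figure D2:**
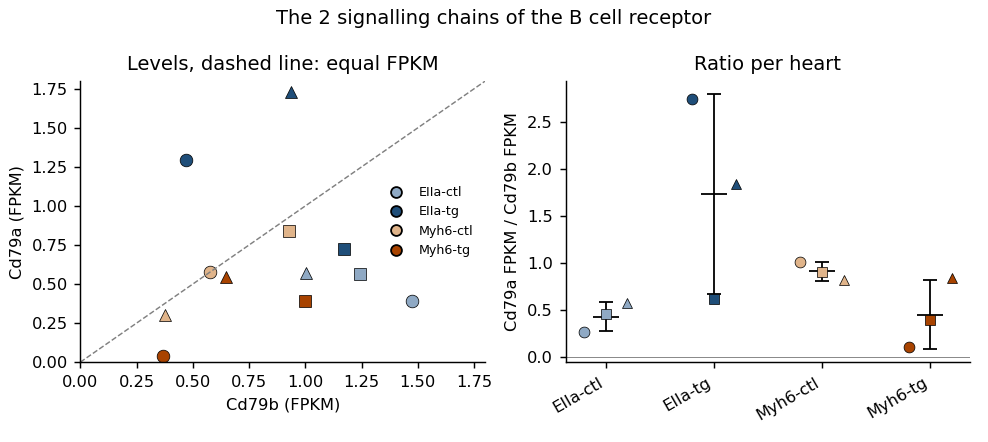
Left, FPKM of Cd79a (vertical) against Cd79b (horizontal) in 12 hearts, with colour for the group, symbol for the replicate number and a dashed line at equal FPKM. Right, the ratio per heart with mean ± SD of 3 hearts; 2 of the 3 EIIa-tg hearts lie above the line, at ratios of 2.74 and 1.85.

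Ms4a1, the CD20 gene (ENSMUSG00000024673, chr19:11249675-11266241, - strand), was the one member to pass an adjusted p of 0.05. Counts were 17, 24 and 18 in Myh6-ctl and 0, 0 and 3 in Myh6-tg. All 3 Myh6-tg hearts were at or below the floor of 3 counts and all 3 controls were well above it. Pooled over hearts, 3 counts against 59 gave a ratio of 0.062 of Myh6-tg to Myh6-ctl, with an exact 95% interval of 0.0124 to 0.19 that covers counting error only. The fitted log2 fold change was -4.31 (SE 1.17), with an adjusted p of 0.0399 in edgeR, and DESeq2 gave an adjusted p of 0.0139. Blocking on the replicate number, which also follows sex, gave -4.52 for Ms4a1 with an adjusted p of 0.0712, and the test also missed 0.05 when any single heart was left out (adjusted p 0.0556 to 0.135).

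In EIIa hearts Ms4a1 had 39, 25 and 44 counts in controls and 27, 65 and 16 in EIIa-tg. These groups overlapped fully, with a log2 fold change of -0.23 (SE 0.54, adjusted p = 0.796, edgeR), or -0.85 without EIIa-tg replicate 2 (adjusted p = 0.313). The difference of responses between models was -4.06 (SE 1.24, adjusted p = 0.0945). An annotated gene on the other strand, 4930526L06Rik, overlaps Ms4a1, and because use of strand in counting is not given in the sources used here, reads of the pair cannot be told apart.

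Pax5, the lineage commitment factor (ENSMUSG00000014030, chr4:44524757-44710487, - strand), had the lowest mean FPKM of the members in every group except Myh6-tg, where Ms4a1 was lower, and it varied from heart to heart. It had 34, 0 and 28 counts in EIIa-ctl and 24, 20 and 20 in EIIa-tg. Counts were 23, 2 and 7 in Myh6-ctl and 0, 14 and 42 in Myh6-tg, a wider range in the transgenic hearts than in any other group. The log2 fold changes were -0.11 (SE 0.96, adjusted p = 0.948) and 0.64 (SE 1.35, adjusted p = 0.780) in edgeR, and 3 of the 12 hearts were at or under the floor. Of 4 genes that overlap Pax5, 3 lie on the other strand.

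Jchain, the plasma cell member (ENSMUSG00000067149, chr5:88519809-88527891, - strand), overlapped between transgenic and control hearts in both models. Its counts were 25, 16 and 60 in EIIa-ctl and 54, 47 and 37 in EIIa-tg. In the older hearts they were 18, 133 and 86 in Myh6-ctl and 60, 69 and 145 in Myh6-tg. Groups overlapped widely, and the log2 fold changes were 0.24 (SE 0.56, adjusted p = 0.798) and 0.02 (SE 0.72, adjusted p = 0.991). By FPKM, Jchain was the highest member in each of the 3 Myh6-tg hearts and Ms4a1 the lowest or equal lowest.

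**Figure D3:**
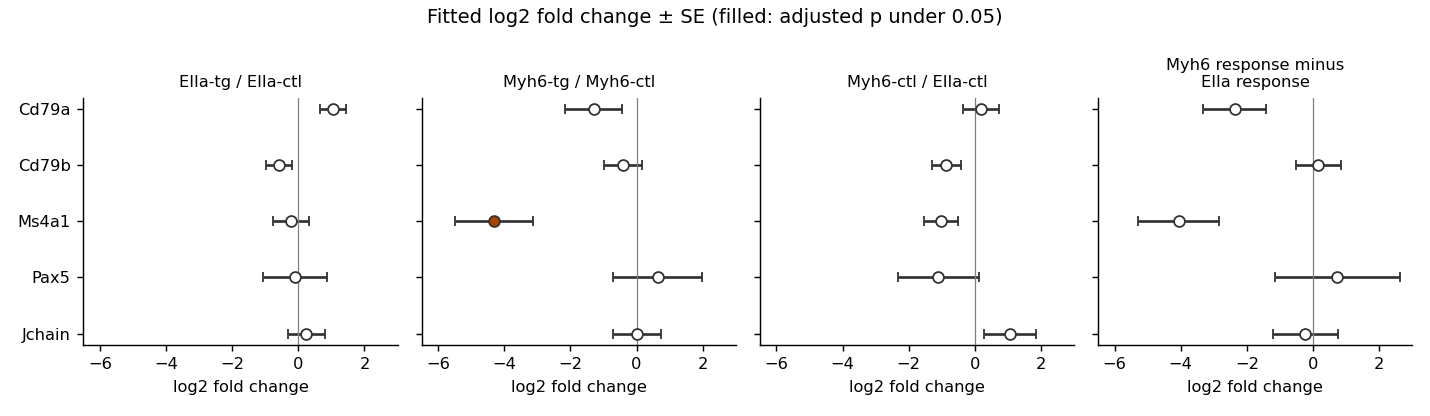
Fitted log2 fold changes (horizontal axes, edgeR) of the 5 markers with their SE in the 3 comparisons and in the difference of the 2 transgene responses. Filled points have an adjusted p under 0.05, which holds only for Ms4a1 in the Myh6 comparison, at -4.31.

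Counted over the members, no comparison held a differentially expressed gene (DEG), for which the adjusted p had to lie under 0.01 and the fold change at or above 2 in either direction, by edgeR or by DESeq2. The same rule called 0% of 14908 genes in the EIIa comparison, 3.97% of 15298 in the Myh6 comparison, 0.0334% of 14990 between control groups and 0.622% of 15929 for the difference of responses. For the first of these, 5204 genes had an unadjusted p under 0.05 and DESeq2 called 845, and in the Myh6 comparison the rule called 969 genes instead of 608 with the replicate block. At an adjusted p under 0.05 alone the counts were 0 of 5 members in EIIa hearts against 17% of all genes, 1 of 5 in Myh6 hearts against 18.3%, 0 of 5 between controls against 0.0334%, and 0 of 5 for the difference against 3.92%. The Myh6 share of 1 in 5 is close to the background of all genes, and with the replicate block it was 0 of 5. DESeq2 also called 1 of 5 in Myh6 hearts, and it called 1 of 5 for the difference and 0 of 5 in the remaining comparisons. At an unadjusted p under 0.05 there was 1 member in EIIa hearts (Cd79a), 1 in Myh6 hearts (Ms4a1), 0 between controls and 2 for the difference (Cd79a and Ms4a1), where all genes gave 34.9%, 34.1%, 11.3% and 19.4%. The median log2 fold change of the 5 members was -0.11 in EIIa hearts, -0.41 in Myh6 hearts and -0.86 between controls, where all tested genes had medians of 0.02, 0.03 and 0.02.

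Between the control groups, which compares day 90 with day 30, Cd79b and Ms4a1 did not overlap. The share of all genes without overlap was not computed, so this is a description only. Cd79b stood at 0.842 ± 0.291 CPM in Myh6-ctl and 1.56 ± 0.22 CPM in EIIa-ctl, and Ms4a1 at 0.4 ± 0.0981 and 0.817 ± 0.232 CPM. Both were lower in the older hearts on these means, but the log2 fold changes of -0.86 (SE 0.44, adjusted p = 0.514) and -1.02 (SE 0.53, adjusted p = 0.517) did not pass the test in edgeR. Jchain had a log2 fold change of 1.06 (SE 0.77, adjusted p = 0.656), Pax5 of -1.10 (SE 1.23, adjusted p = 0.797) and Cd79a of 0.20 (SE 0.54, adjusted p = 0.934). Of the other B lineage genes none passed an adjusted p of 0.05 between controls. From each list with tested genes, the 2 genes with the lowest p within that list are given. Of the surface and signalling genes they were Blnk at 1.45 (SE 0.27, adjusted p = 0.102) and Cd37 at 0.71 (SE 0.23, adjusted p = 0.295). Of the transcription factors they were Pou2f2 at 1.10 (SE 0.38, adjusted p = 0.327) and Irf8 at 0.68 (SE 0.25, adjusted p = 0.362). Of the plasma cell genes they were Irf4 at 0.72 (SE 0.39, adjusted p = 0.541) and Xbp1 at 0.30 (SE 0.17, adjusted p = 0.561). Of the ligands they were Cxcl13 at 4.40 (SE 1.12, adjusted p = 0.187) and Tnfsf13 at 0.70 (SE 0.49, adjusted p = 0.641). This comparison shares its control hearts with both transgene comparisons.

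Other genes of the B cell surface and of receptor signalling were read from a list of 16. In EIIa hearts 14 passed the filter on low counts, of which 4 rose at an adjusted p under 0.05, none fell and 10 did not pass, where 17% of all genes passed in either direction. Cd72, a coreceptor that dampens the B cell receptor, had 175, 171 and 114 counts in EIIa-ctl and 408, 430 and 550 in EIIa-tg. Its log2 fold change was 1.41 (SE 0.20, adjusted p = 0.0147), and no EIIa-tg heart reached down to the controls. Blnk, the adaptor that links the receptor to its downstream enzymes, had 99, 81 and 56 counts against 179, 246 and 313, with a log2 fold change of 1.46 (SE 0.26, adjusted p = 0.0179). Cd180, a relative of the Toll-like receptors, rose by 1.10 (SE 0.26, adjusted p = 0.0296) and the tetraspanin Cd37 by 0.82 (SE 0.20, adjusted p = 0.0322) on the log2 scale. None of the 4 calls held whichever heart was left out: EIIa-ctl replicate 1 or 3 and EIIa-tg replicate 1 each raised the adjusted p of all 4 over 0.05, to 0.0769 to 0.109 for example without EIIa-ctl replicate 1, as did EIIa-tg replicate 3 for Blnk, Cd180 and Cd37 and EIIa-ctl replicate 2 for Cd37. With the replicate number, and thus sex, as a block none of the 4 passed, and together with Vpreb3 and Prdm1 below their adjusted p were 0.0631 to 0.0817.

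These 4 genes are also expressed by macrophages and other myeloid cells. All 7 macrophage genes rose at an adjusted p under 0.05 in EIIa-tg, where their summed level was 460 to 685 CPM against 213 to 331 CPM in EIIa-ctl, and all 4 pan-leukocyte genes rose, with sums of 107 to 147 against 51 to 71.5 CPM. Their part in the result was not tested. Genes of the list that are more confined to B cells did not pass where they were tested, and their directions were mixed. Cd22, an inhibitory lectin of B cells, had 15, 28 and 21 counts in EIIa-ctl and 35, 45 and 67 in EIIa-tg, with a log2 fold change of 0.98 (SE 0.47, adjusted p = 0.172). Blk was lower in every EIIa-tg heart than in every EIIa-ctl heart, at 0.297 to 0.432 against 0.559 to 0.661 CPM, and did not pass. Fcer2a, the CD23 gene, had 12, 34 and 25 counts against 3, 8 and 26 and a log2 fold change of -1.17 (SE 0.80, adjusted p = 0.335). Cr2 was counted in 1 EIIa-ctl heart, at 32, and in 1 EIIa-tg heart, at 7, too low for the fit.

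In Myh6 hearts 13 of the 16 were tested and 1 fell, where 18.3% of all genes passed. Bank1, a scaffold of B cell receptor signalling (ENSMUSG00000037922, chr3:136053363-136326066, - strand), had 151, 62 and 115 counts in Myh6-ctl and 7, 10 and 18 in Myh6-tg. Every Myh6-tg heart was far below every control, at 0.289 ± 0.143 against 2.18 ± 0.823 CPM (SD, n = 3). Its log2 fold change of -3.33 (SE 0.56, adjusted p = 0.00945) made it the DEG among the listed B lineage genes, and with the replicate block it was -3.30 with an adjusted p of 0.0145. On leaving out each heart the adjusted p ran from 0.00893 to 0.0482. In EIIa hearts Bank1 had 108, 74 and 55 counts against 38, 76 and 35, and these groups overlapped. Gm31243 overlaps Bank1 on the other strand.

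Fcmr, the receptor for the Fc part of IgM, had 18, 38 and 16 counts in Myh6-ctl and 4, 5 and 9 in Myh6-tg. The groups did not overlap, and the log2 fold change of -2.18 (SE 0.77, adjusted p = 0.0870) did not pass. Ms4a1, Bank1 and Fcmr were thus lower in each Myh6-tg heart than in each Myh6-ctl heart, while Cd22 had 10, 22 and 59 counts against 75, 18 and 27 and overlapped. Cd37 was higher in each Myh6-tg heart, at 5.79 to 12.1 against 3.65 to 5.68 CPM, and overlapped on TMM-scaled CPM. Of the 13 tested genes of the list, 9 had negative and 4 had positive log2 fold changes. The share of all genes without overlap was not computed, so this is a description only.

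Erythroid genes, which report the blood left in the tissue, were lower in transgenic hearts of both models. Their summed level was 2243 to 4492 CPM in Myh6-tg against 4307 to 8034 CPM in Myh6-ctl, and 218 to 1255 in EIIa-tg against 1379 to 2450 CPM in EIIa-ctl. All 5 erythroid genes had negative log2 fold changes in both models, of which 3 passed an adjusted p of 0.05 in Myh6 hearts and 1 in EIIa hearts. The part of blood content in the values of Ms4a1, Bank1 and the other markers was not tested. Macrophage genes had a summed level of 748 to 1278 CPM in Myh6-tg and 379 to 648 CPM in Myh6-ctl with 0 of 7 past an adjusted p of 0.05, and 1 of 4 pan-leukocyte genes fell (Coro1a, -0.66, SE 0.18, adjusted p = 0.0411). In the same hearts 2 of 4 fibroblast genes rose, among them the DEG Col1a1 at 2.11 (SE 0.29, adjusted p = 0.00515). T cell genes, also carried by blood, had 0 of 7 tested genes past that threshold in Myh6 hearts and 0 of 4 in EIIa hearts.

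**Figure D4:**
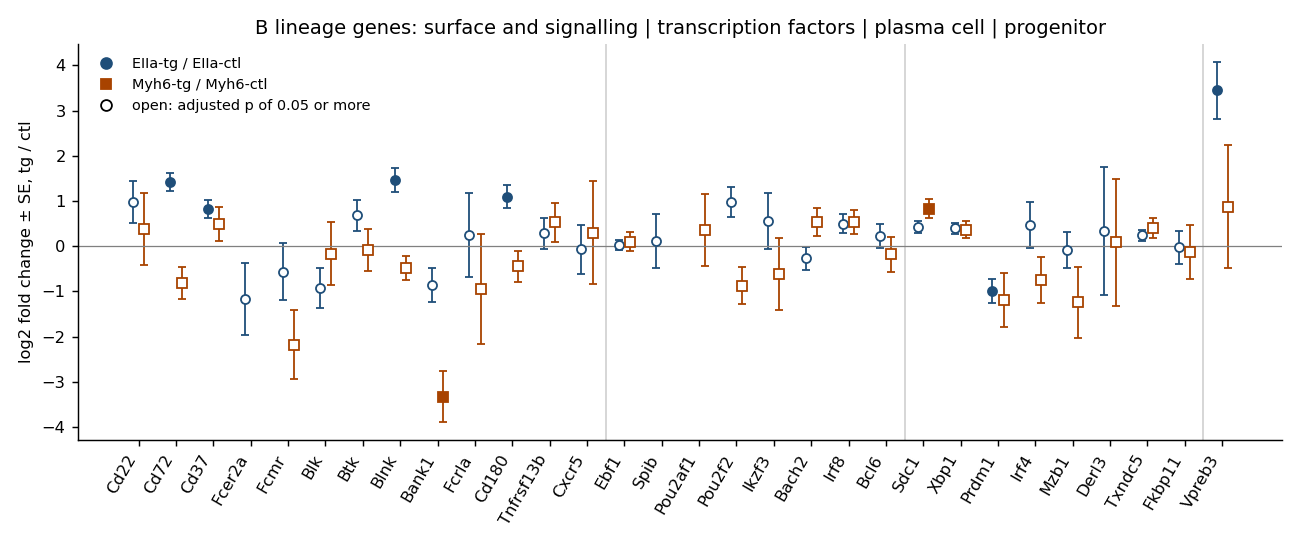
Fitted log2 fold changes ± SE (vertical axis) of tested genes of 4 B lineage lists, EIIa as circles and Myh6 as squares. Filled symbols have an adjusted p under 0.05; Cd72, Cd37, Blnk, Cd180 and Vpreb3 are higher and Prdm1 lower in EIIa-tg, and Bank1 is lower and Sdc1 higher in Myh6-tg.

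Of 8 transcription factors of the lineage 7 were tested in each model, and none passed an adjusted p of 0.05 in either model or between controls. Pou2f2, the OCT2 gene, whose product binds the octamer shown above, had 30, 35 and 35 counts in EIIa-ctl and 76, 75 and 74 in EIIa-tg. It had 69, 87 and 88 counts in Myh6-ctl and 41, 46 and 59 in Myh6-tg. The log2 fold changes were 0.97 (SE 0.33, adjusted p = 0.0745) and -0.87 (SE 0.40, adjusted p = 0.171). Irf8 was 0.50 (SE 0.21, adjusted p = 0.129) and 0.53 (SE 0.27, adjusted p = 0.204) on the same scale, and its groups did not overlap in EIIa hearts, while in Myh6 hearts they were apart on unscaled CPM and overlapped on TMM-scaled CPM. Irf8 and Bcl6 are active in myeloid cells as well, and Ebf1 in stromal cells.

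Of 6 progenitor genes 1 was abundant enough to be tested, and it rose. Vpreb3, a gene of early B cells (ENSMUSG00000000903, chr10:75943057-75949657, + strand), had 2, 5 and 6 counts in EIIa-ctl and 47, 37 and 83 in EIIa-tg. No heart of one group fell in the range of the other, and the log2 fold change was 3.45 (SE 0.63, adjusted p = 0.0183). Its adjusted p was 0.0615 to 0.0785 when EIIa-ctl replicate 1 or 3 or EIIa-tg replicate 1 or 3 was left out, and 0.0633 with the replicate block. It was 0.88 (SE 1.36, adjusted p = 0.697) in Myh6 hearts, with 2, 20 and 6 counts against 0, 33 and 27. The other genes of this stage were near the floor. Igll1, which encodes a part of the surrogate light chain, was at 0 counts in all 12 hearts, Vpreb1 was counted in 2 Myh6-ctl hearts only, at 9 and 7, and no heart had more than 7 counts of Rag1, 2 of Rag2 or 16 of Dntt. Dntt had 0 counts in the 3 Myh6-ctl hearts and 12, 8 and 16 in Myh6-tg. Genes of thymocytes, with which progenitor genes are shared, summed to 0.863 to 0.953 CPM in EIIa-tg and 0.122 to 0.493 CPM in EIIa-ctl, and Ptcra among them had 5, 5 and 17 counts in EIIa-tg and 0 in each EIIa-ctl heart. In Myh6-tg and Myh6-ctl the sums overlapped, at 0.488 to 1.59 and 0.0785 to 1.38 CPM. Their part in the value of Vpreb3 was not tested. Gm16221 overlaps Vpreb3 on the other strand.

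**Figure D5:**
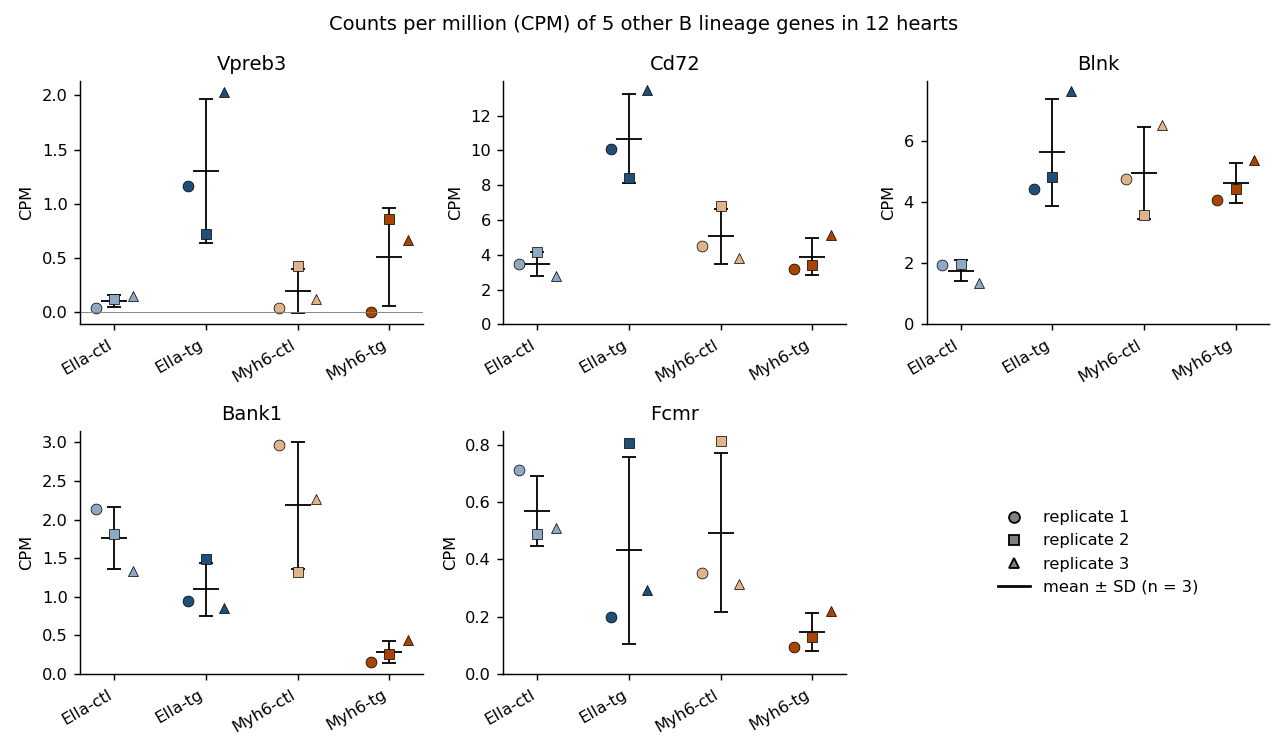
CPM of Vpreb3, Cd72, Blnk, Bank1 and Fcmr (vertical axes, each with its own scale) in the 3 hearts of each group, with symbols for the replicate number and bars for mean ± SD. Vpreb3, Cd72 and Blnk in EIIa-tg lie above all EIIa-ctl hearts, and Bank1 and Fcmr in Myh6-tg lie below all Myh6-ctl hearts.

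Of 9 plasma cell genes, 8 were tested in each model and 1 passed an adjusted p of 0.05 in each, where 17% and 18.3% of all genes passed. Prdm1, which encodes the repressor BLIMP1 that drives plasma cell differentiation, fell in EIIa-tg, with 127, 167 and 171 counts against 75, 107 and 90 and a log2 fold change of -0.99 (SE 0.25, adjusted p = 0.0365). Sdc1, the CD138 gene, rose in Myh6-tg, with 389, 271 and 479 counts against 626, 669 and 873 and a log2 fold change of 0.83 (SE 0.20, adjusted p = 0.0272). Both genes are active in other cell types of the heart. With the replicate block the adjusted p of Prdm1 was 0.0768. With 1 heart left out, it stayed under 0.05 only without EIIa-tg replicate 2 (otherwise 0.0775 to 0.127), and that of Sdc1 only without Myh6-tg replicate 1 (otherwise 0.0578 to 0.110). In Myh6 hearts Prdm1 had a log2 fold change of -1.20 (SE 0.60, adjusted p = 0.201). Mzb1, a chaperone of antibody secreting cells, had 45, 50 and 13 counts in Myh6-ctl and 8, 26 and 18 in Myh6-tg and overlapped, and Xbp1 had a log2 fold change of 0.40 (SE 0.12, adjusted p = 0.0542) in EIIa hearts, or 0.48 without EIIa-tg replicate 2 (adjusted p = 0.0234). Tnfrsf17, the BCMA gene of plasma cells, had between 0 and 51 counts and was too low for the fit in both models. Of 10 other immunoglobulin constant genes 1 was analysed, Iglc2, at 0 to 12 counts per heart.

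Ligands that attract or sustain B cells were read from a list of 6. Cxcl13, the chemokine that draws B cells through CXCR5, had 16, 24 and 43 counts in Myh6-ctl and 84, 174 and 253 in Myh6-tg. All transgenic hearts exceeded all controls and the log2 fold change was 2.52 (SE 0.53, adjusted p = 0.0178). With the replicate block Cxcl13 was 2.49 with an adjusted p of 0.00975, which made it a DEG. In the younger hearts its counts were 0, 0 and 3 in EIIa-ctl and 14, 7 and 31 in EIIa-tg, too low for the fit. Cxcl12, which retains B cells in the marrow, fell by 1.20 on the log2 scale in Myh6-tg (SE 0.28, adjusted p = 0.0267), with 12788, 5926 and 13094 counts against 3656, 5577 and 5402. Its groups overlapped on unscaled CPM, where the lowest Myh6-ctl heart had 127 and the highest Myh6-tg heart 145 CPM. On TMM-scaled CPM they were apart. Without Myh6-ctl replicate 1 the adjusted p of Cxcl13 was 0.0685 and that of Cxcl12 0.0965, and the loss of Myh6-tg replicate 2 or 3, of Myh6-ctl replicate 2 for Cxcl13 or of Myh6-ctl replicate 3 for Cxcl12 also took them past 0.05. On FPKM, Cxcl12 did not pass in Myh6 hearts (limma, adjusted p 0.114 to 0.185). In EIIa hearts Cxcl12 was -0.37 (SE 0.12, adjusted p = 0.0693), and its sign turned on FPKM, while without EIIa-tg replicate 2 its adjusted p was 0.00854. Tnfsf13b, the BAFF gene, was 0.93 (SE 0.34, adjusted p = 0.0891) in EIIa and 0.88 (SE 0.30, adjusted p = 0.0770) in Myh6 hearts. The receptor Cxcr5 stayed between 0 and 19 counts.

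Genes whose level over the 12 hearts was most like the mean standardised log2 CPM of the 5 members were Ezr (Pearson r = 0.96), Ly6d (0.90), Dcps (0.88), Tmc5 (0.88), Nudt10 (0.87) and Gm49486 (0.87). The points are 12 hearts of 4 groups that share library depth, and the coefficients are descriptions. Ly6d, a surface marker of early B lineage cells, had 30, 10 and 18 counts in EIIa-ctl, 10, 38 and 11 in EIIa-tg, 12, 14 and 5 in Myh6-ctl and 0, 5 and 6 in Myh6-tg. Ezr, the ezrin gene, is widely expressed and had 1656 to 3004 counts per heart. Each member was also correlated with this profile, of which it is itself a part, which raises r. The values were 0.84 for Cd79a, 0.77 for Ms4a1, 0.64 for Cd79b, 0.63 for Pax5 and 0.09 for Jchain. A correlation of Jchain with the other 4 alone was not computed.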

How the data were processed

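Heart RNA of 12 mice was sequenced, 3 per group. The authors deposited a table of counts (whole reads per gene, not normalized) and a table of FPKM. The submitters' processing notes name HISAT2 2.0.4, StringTie 2.2.1 and DESeq2, and both mm10 and GRCm39, without roles. Positions came from GENCODE M21. No column was left unmapped.

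Counts were tested with edgeR 4.0.16 in R 4.3.3 (filterByExpr with the group, TMM, glmQLFit, glmQLFTest, Benjamini-Hochberg over all genes tested) in the 6 hearts of a comparison, or in 12 hearts for the difference of responses. No analysed member was removed by the filter, so no separate permutation test was needed. Scripts were tested on simulated data. Members and lists were chosen with earlier results of these data known. Named genes of each B lineage list were the DEGs and the 2 genes with the lowest p per comparison, further list genes were named after their values were seen, and lists of other cell types are given by counts and sums. The values of 1 listed gene are not reported here. Likeness used a prior count of 2.

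Same-numbered Myh6 hearts deviated together from their group means (r = 0.285, 0.184 and 0.173), so the replicate block is given beside the Myh6 results whose call it changed. The number follows sex, so sex and any pairing of hearts were not told apart. Alternatives were RLE factors, DESeq2 1.42.0, other filters, the bias-adjusted fit, removal of mitochondrial genes, limma 3.58.1 on log2 FPKM with pseudocounts of 1 and 0.1, all 12 hearts in one fit, the block, and each heart left out. Depth is 38343106 to 50969834 counts per heart; floors and intervals cover counting error only. Figures used matplotlib 3.10.9.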

Additional observations from a re-analysis of the deposited data

Results flagged for a closer look

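In all, 5 genes of the B lineage lists differed between the 2 models in their log2 fold change of transgenic against control hearts. This was the test of the difference itself in all 12 hearts (edgeR, Myh6 response minus EIIa response, adjusted over all genes, of which 3.92% passed 0.05). They were 4 of 14 tested surface and signalling genes and 1 of 8 transcription factors. Of the plasma cell, progenitor and ligand genes 0 of 8, 0 of 1 and 0 of 6 passed. Cd72 differed by -2.24 on the log2 scale (SE 0.41, adjusted p = 0.0128) and Blnk by -1.94 (SE 0.36, adjusted p = 0.0126). Cd180 differed by -1.55 (SE 0.39, adjusted p = 0.0497), Pou2f2 by -1.85 (SE 0.46, adjusted p = 0.0448) and Bank1 by -2.46 (SE 0.63, adjusted p = 0.04996). Cd72 and Blnk rose in EIIa-tg and had 231, 319 and 195 against 137, 130 and 208 counts and 243, 167 and 333 against 176, 170 and 218 counts in Myh6 hearts. The difference of Cd72 kept an adjusted p under 0.05 in 22 of 22 alternatives and that of Blnk in 21 of 22. Those of Cd180, Pou2f2 and Bank1 kept it in 7 of 22, 6 of 20 and 6 of 22 alternatives that gave a value. Age, tamoxifen and the cells in which Cre acts differ together between the models and cannot be told apart. On TMM-scaled CPM, 2 of the 50 analysed genes of the B lineage lists, Blnk and Pou2f2, were higher in every EIIa-tg heart and lower in every Myh6-tg heart than in each of their controls, and on unscaled CPM 0 of 50 were. The share of all genes with this pattern was not computed, so these counts have no background to be read against. Among genes of other leukocytes, all 4 pan-leukocyte genes and 6 of 7 macrophage genes also had negative differences, and Coro1a (-1.36, adjusted p = 0.00611) and Adgre1 (-1.64, adjusted p = 0.0289) passed the same test. Their part in the values above was not tested. With 3 hearts a group no test for a single outlying heart was made.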

How the results depend on the processing

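The count of members called as DEGs was 0 in each comparison and stayed 0 except in Myh6 hearts, where it was 1 (Ms4a1) at an adjusted p under 0.05 with the same fold change and 1 with all 12 hearts in one fit. At an adjusted p under 0.05 alone, the Myh6 count of 1 became 0 without a filter on low counts and with the replicate block, and also 0 with genes kept from 1 CPM in 3 hearts and with limma on filtered FPKM at either pseudocount, which did not test Ms4a1. Leaving out each heart gave 0 to 0 for Myh6. The EIIa count of 0 became 1 (Cd79a) with limma on log2(FPKM + 0.1), and 0 to 1 on leaving out hearts. The count for the difference became 1 (Ms4a1) with DESeq2, and 0 to 1 on leaving out hearts. In Myh6 hearts the replicate block changed the calls of Ms4a1, Bank1 and Cxcl13 and of no other named B lineage gene. Same-numbered hearts deviated together less or not at all in the EIIa and control comparisons (r of -0.070 to 0.060 and -0.031 to 0.124). The EIIa block left 1 gene past an adjusted p of 0.05 instead of 2527, and Cd72, Blnk, Vpreb3, Cd180, Cd37 and Prdm1 then had adjusted p of 0.0631 to 0.0817. Over the alternatives, all genes called as DEGs numbered 0 to 921 in EIIa hearts (0 as reported), 26 to 2152 in Myh6 hearts (608), 0 to 177 between controls (5) and 11 to 621 for the difference (99). At an adjusted p under 0.05 these were 0 to 4079 (2527), 798 to 5049 (2805), 1 to 432 (5) and 293 to 1727 (624). The causes were not tested.

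Over 53 pairs of a gene and a comparison and 898 fits, 736 kept direction and side of an adjusted p of 0.05, 111 lost it, 19 gained it and 32 changed sign. Every sign change was in a value that did not pass an adjusted p of 0.05 in the reported fit. In EIIa hearts Pax5 was 0.43 with the replicate block and 0.0074 with limma on unfiltered log2(FPKM + 1), and Cxcl12 was 0.031 with limma at a pseudocount of 1, filtered or not, and 0.032 at 0.1. In Myh6 hearts Jchain was -0.012 with RLE factors, -0.013 with DESeq2 and -0.020 without mitochondrial genes, and Cd79b was 0.037 at a pseudocount of 1, filtered or not, and 0.076 at 0.1. The Jchain difference was 0.12 at a pseudocount of 1, filtered or not, and 0.14 at 0.1. On leaving out hearts, EIIa values ran from -0.69 to 0.32 for Pax5, -0.10 to 1.05 for Jchain and -0.85 to 0.12 for Ms4a1. Myh6 values ran from -0.46 to 0.86 for Jchain and -0.62 to 1.95 for Pax5. Cd79a between controls ran from -0.26 to 0.55, and the differences from -1.04 to 0.60 for Jchain, -0.18 to 0.53 for Cd79b and -0.52 to 2.03 for Pax5. Counts of 0 to 145 per heart limit the members, and a member below 3 counts cannot be told from absent at this depth.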
